A study of Mus musculus with 21 samples.

Results

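Mammary organoids carrying the Mre11 ATLD1 mutation on both alleles were compared at 28 days and at 14 days after the neuT oncogene was switched on. The comparison holds 3 libraries at each time, chosen by their labels, which are 6 of the 21 libraries of the series. They are called ATLD below. The series, which asks about the response to DNA damage once an oncogene is active, also holds wild-type (WT) organoids. Each genotype was sampled at days 0, 14 and 28, with 3 libraries a group. Replicate 1 of each WT group was sequenced again in the run of the ATLD libraries, so all 6 libraries compared share a run. Organoids are small epithelial structures grown in culture from primary mammary tissue, and polyA RNA was sequenced after a stranded library preparation. All 6 libraries compared come from Mre11 mutant cells with active neuT, so by their labels they differ in time alone. Every library of days 14 and 28 has active neuT, so time in culture and exposure to the oncogene cannot be told apart. Mouse strain, age, the promoter that drives neuT and the source of each replicate were not given in the sources used here, so the p-values measure the spread between these libraries, which may be technical.

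Mre11, with Rad50 and Nbn, binds broken DNA ends, trims them and activates the kinase Atm. ATLD1 is a hypomorphic allele named after ataxia-telangiectasia-like disorder, in which that response is weakened. neuT is an activated form of the Erbb2 receptor, which signals through the Ras and ERK kinases, and sustained oncogene signalling is known to slow proliferation by way of damage at replication forks. The mammary epithelium holds luminal progenitors, which give rise to milk-secreting cells, hormone-sensing luminal cells and a contractile basal layer.

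The 6 libraries held 46331204 to 51757203 counts each. Mitochondrial transcripts made up 2.72% to 3.43% of counts at day 14 and 2.31% to 2.74% at day 28, and the 10 most abundant genes took 6.497% to 6.506% and 7.99% to 8.34%. Replicates of a group differed by more than sampling noise. Outside these 6, the WT libraries labelled replicate 2 at days 14 and 28 stood apart from their groups and lay nearer the libraries of the other day. Over 11904 genes, the SD of the log2 ratio of replicate 2 of day 14 was 0.605 and 0.608 to the other day 14 libraries and 0.254 and 0.238 to replicates 1 and 3 of day 28. For replicate 2 of day 28 it was 0.451 and 0.472 to its own day and 0.247 and 0.238 to replicates 1 and 3 of day 14. The labels were kept as given and the cause was not tested. These libraries enter the ATLD comparison through the shared estimate of the spread and the comparison with WT directly, so counts are also given without both. Mre11a, the mutated gene (symbol as in the table's annotation), was at 15.7, 16.9 and 14.7 CPM (counts scaled to a library of 1000000, after TMM scaling of library sizes) at day 14 and at 14.8, 16.5 and 14.7 CPM at day 28, while the WT means over all 3 libraries of each day were 54.04 and 46.6 CPM. Its 3 day 28 values overlapped the day 14 values. The fitted log2 change was -0.04 ± 0.10 (SE, as after each log2 change below), with a Benjamini-Hochberg adjusted p of 0.821 by edgeR's quasi-likelihood test, which gives every adjusted p here. Erbb2 read 86.8, 79.05 and 75.4 CPM at day 14 and 76.1, 71.6 and 106 CPM at day 28, also overlapping (0.07 ± 0.26, adjusted p = 0.882). Whether neuT transcripts align to the mouse Erbb2 gene is not stated, so Erbb2 is no direct check of the oncogene. The epithelial label held: the 12 shared luminal genes, among them keratins 8 and 18 and Epcam, summed to 5932, 7075 and 6948 CPM at day 14 and to 7791, 6689 and 6242 CPM at day 28. Of the defining markers of other cells, Ptprc, Adgre1, C1qa, Cd4, Cdh5 and Lum had 0 counts in all 6 libraries, while the fibroblast list, nearly all of it the matricellular gene Postn, summed to 1236, 1219 and 850.1 CPM at day 14 and 817, 784 and 993 CPM at day 28, with 0 of 9 members tested called. In bulk RNA, fewer cells of a type and less RNA per cell cannot be told apart, and this holds for every change below.

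Of 18684 genes tested, 3232 (17.3%) were called at an adjusted p under 0.05 by edgeR's quasi-likelihood test, 1542 higher at day 28 (8.25%) and 1690 lower (9.05%). The call and a change of at least 2-fold together held for 1129 genes (6.04%), 597 higher (3.2%) and 532 lower (2.85%). The day 14 and day 28 libraries did not overlap for 7211 genes (38.6%), and 3175 of the called genes were among them. Lack of overlap in a called gene below therefore adds little to its call. With the 9 ATLD libraries alone 3605 genes were called. Without both WT replicate 2 libraries 5314 of 19057 genes were called, 2798 higher and 2516 lower. Calls thus rose over all genes, and the list counts of that setting that follow are to be read beside this general rise. Of the lists below, leaving out both raised the falls from 10 to 22 of 28 ribosomal protein genes, from 4 to 8 of 17 NF-kB targets, from 5 to 8 of 20 basal markers and from 2 to 6 of 9 mitochondrial transcripts. The rises went from 1 to 5 of 18 nucleic acid sensing genes, from 1 to 3 of 30 p53 targets, of 17 NF-kB targets and of 12 shared luminal genes, and from 0 to 2 of 38 repair and of 22 cholesterol synthesis genes. Over all genes tested the median log2 change was -0.0046. Each list count below is to be read beside the shares of all genes, 8.25% higher and 9.05% lower. A count near those shares says nothing particular about its list.

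**Figure D1:**
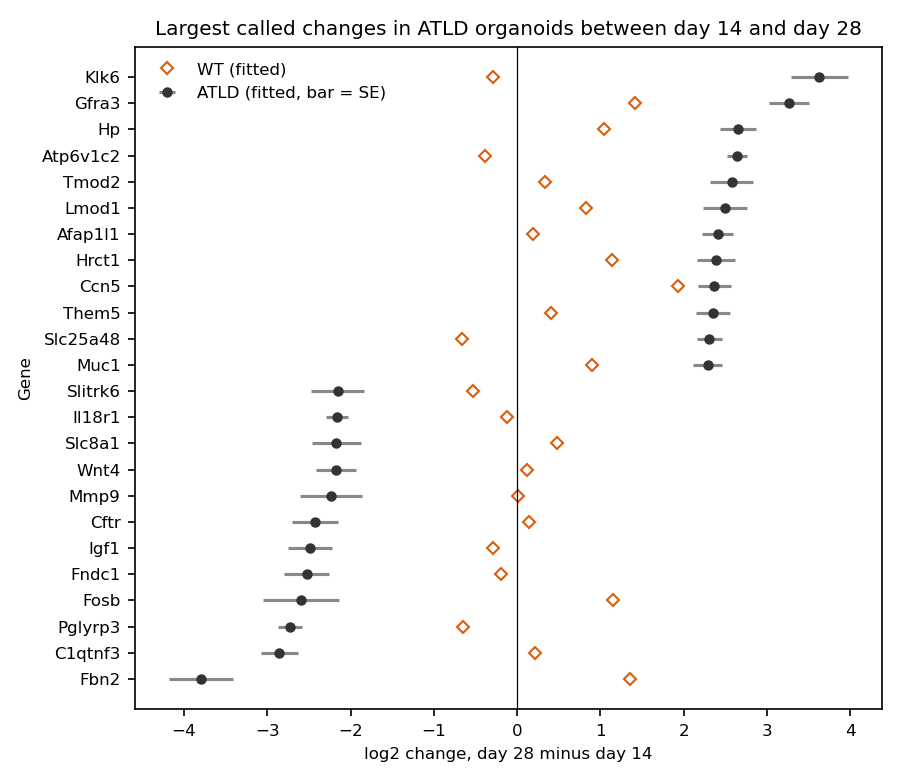
Fitted log2 change from day 14 to day 28 for the 12 largest rises and the 12 largest falls in ATLD organoids, among called genes whose times did not overlap, with a full gene name and a mean log2 CPM not under 1. Filled points with bars give the ATLD change and its standard error, and open diamonds give the change fitted over all 3 WT libraries of each day for the same genes. The ATLD changes run from -3.80 for Fbn2 to 3.63 for Klk6, while most WT diamonds lie between -1 and 1.

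Klk6, a secreted serine protease of the kallikrein family (chromosome 7, 43824499 to 43832030, mm10), had the largest rise within the limits on level, overlap and name given for the plot of the largest changes. It was at 0.527, 1.16 and 1.19 CPM at day 14 and at 9.60, 15.7 and 10.3 CPM at day 28, a log2 change of 3.63 ± 0.34 (adjusted p = 2.84e-06). Every day 28 library was above every day 14 library, as the limits required. Hp, the haemoglobin scavenger haptoglobin, rose from 52.96, 91.1 and 83.1 CPM to 497, 448 and 482 CPM (2.65 ± 0.21, adjusted p = 5.13e-07). Atp6v1c2, a subunit of the proton pump that acidifies vesicles, rose from 5.43, 6.06 and 6.55 CPM to 33.3, 40.7 and 38.4 CPM (2.64 ± 0.12, adjusted p = 1.83e-09), and Muc1, the apical mucin of luminal cells, rose from 6.66, 7.08 and 6.12 CPM to 26.2, 27.8 and 42.98 CPM (2.29 ± 0.18, adjusted p = 3.02e-07). The values of these genes did not overlap between the times, which was a condition of their choice and held for 38.6% of all genes. The other large rises were in Gfra3, a co-receptor for artemin (3.26), the actin-filament genes Tmod2 (2.58), Lmod1 (2.496) and Afap1l1 (2.41), the secreted matricellular protein Ccn5 (2.37), the acyl-CoA thioesterase Them5 (2.35), the mitochondrial carrier Slc25a48 (2.31) and Hrct1 (2.38), all log2 changes.

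Fbn2, which encodes the microfibril protein fibrillin 2, had the largest fall within the same limits. Its day 14 values were 142, 70.1 and 69.5 CPM and its day 28 values 4.59, 5.46 and 10.3 CPM (-3.80 ± 0.38, adjusted p = 4.70e-06). As the limits required, the lowest day 14 library stood above the highest day 28 library. Replicate 1 at day 14 was far above the others of its day. Igf1, the insulin-like growth factor, fell from 22.5, 22.8 and 21.5 CPM to 4.16, 4.30 and 3.41 CPM (-2.49 ± 0.26, adjusted p = 7.82e-06). Mmp9, a gelatinase that degrades basement membrane, fell from 55.8, 54.9 and 50.1 CPM to 8.88, 13.8 and 11.5 CPM (-2.23 ± 0.37, adjusted p = 4.64e-04). At day 0 Mmp9 had been at 2.39, 0.939 and 0.786 CPM and Igf1 at 5.9998, 5.03 and 3.34 CPM, so the day 28 level of Igf1 lay within its day 0 range while that of Mmp9 was above it. Wnt4, the ligand that hormone-sensing cells release to their neighbours, was at 10.5, 9.77 and 10.1 CPM at day 14 and 2.51, 1.69 and 2.54 CPM at day 28 (-2.17 ± 0.24, adjusted p = 1.18e-05). Further falls were in C1qtnf3, an adipokine-like secreted protein (-2.85), the peptidoglycan-binding Pglyrp3 (-2.73), the AP-1 subunit Fosb (-2.60), the fibronectin-domain protein Fndc1 (-2.52), the chloride channel Cftr (-2.43), the sodium-calcium exchanger Slc8a1 (-2.17), the interleukin 18 receptor subunit Il18r1 (-2.16) and Slitrk6 (-2.15).

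Many of the luminal progenitor and milk genes tested were higher at day 28. Of 18 luminal progenitor markers tested, 10 rose and 1 fell, with a median log2 change of 0.65, and of 12 milk genes tested 7 rose and 1 fell, with a median of 0.72. Those shares of rises, 55.6% and 58.3%, stand beside 8.25% of all genes, and Csn3 and Lalba belong to both lists. Of 14 milk genes listed, the casein Csn2 and Glycam1 did not pass the filter, with at most 8 counts in any of the 6 libraries. Ltf, the iron-binding antimicrobial milk protein lactoferrin (chromosome 9, 111019271 to 111042767), was at 2350.0, 2837 and 2204 CPM at day 14 and 10920.2, 10147 and 12379.8 CPM at day 28. It thus rose 4.53-fold in mean CPM (log2 change 2.18 ± 0.13, adjusted p = 2.23e-08), past its day 0 level of 6213 CPM. Csn3, the casein that stabilises milk micelles, rose from 2980.0, 3999.8 and 3622 CPM to 12367, 11105 and 9278 CPM (1.63 ± 0.19, adjusted p = 1.66e-05). No day 28 library of either gene was below a day 14 library, and Ltf, Csn3 and Lcn2 together took 1.12% to 1.44% of all counts at day 14 and 3.04% to 3.28% at day 28.

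Cd14, a bacterial lipopolysaccharide co-receptor of luminal progenitors, rose from 293, 388 and 373 CPM to 876, 774 and 840.3 CPM (1.24 ± 0.16, adjusted p = 5.38e-05). Lalba, the alpha-lactalbumin of lactose synthesis, remained low, at 0.154, 0.469 and 0.500 CPM at day 14 and 1.58, 1.85 and 1.73 CPM at day 28 (2.20 ± 0.34, adjusted p = 2.55e-04). Spp1, the secreted phosphoprotein osteopontin, went from 1406, 1748 and 1825 CPM to 3603, 3789.9 and 3108 CPM (1.08 ± 0.14, adjusted p = 4.43e-05), and Plin2, which coats lipid droplets, from 224, 277 and 269 CPM to 457, 408 and 378 CPM (0.69 ± 0.12, adjusted p = 8.96e-04). All 4 genes were higher in every day 28 library. Among members named here after their values were seen, the whey protein Wap (2.77), the folate receptor Folr1 (1.03) and the siderophore-binding Lcn2 (0.62) also rose, while Rspo1, a potentiator of Wnt signalling (-0.99), and the milk-fat globule gene Btn1a1 (-0.59) fell. The transcription factor Elf5 of the same lineage had a log2 change of 0.37 and the receptor Kit of -0.52, neither called (adjusted p = 0.0551 and 0.107).

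**Figure D2:**
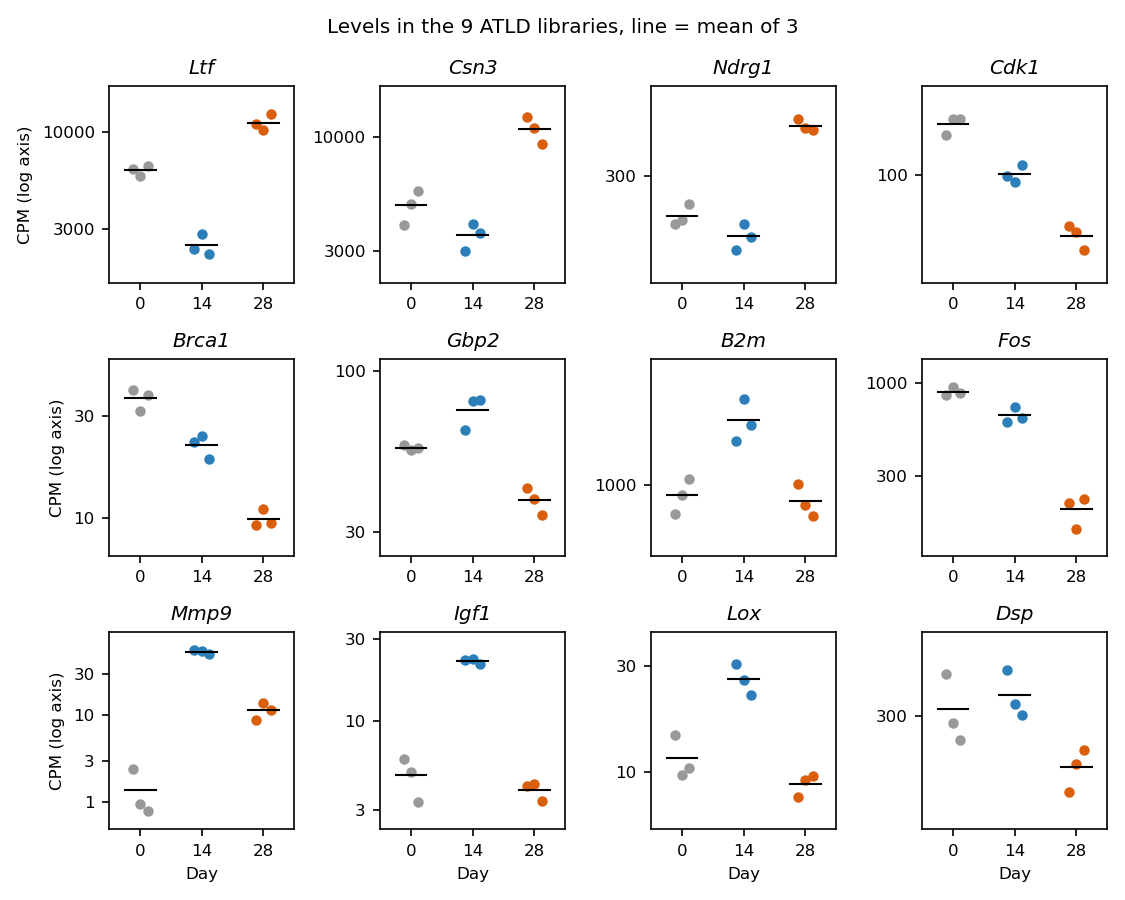
Levels of 12 genes in the 9 ATLD libraries, as CPM on log axes with a different range in each panel. Points are libraries at days 0, 14 and 28 and the line is the mean of 3. Ltf, Csn3 and Ndrg1 stand highest at day 28, Cdk1 and Brca1 step down at each time, and Gbp2, B2m, Mmp9, Igf1 and Lox stand highest at day 14.

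The other mammary lineages moved in both directions. Of 20 hormone-sensing markers, 4 rose (20%) and 5 fell (25%), beside 8.25% and 9.05% of all genes, with a median of -0.13. Foxa1, the pioneer factor of that lineage, rose from 2.37, 1.61 and 2.19 CPM to 4.68, 5.69 and 6.70 CPM (1.47 ± 0.20, adjusted p = 9.06e-05), and the surface glycoprotein Prom1 rose (0.96 ± 0.13). Ptgs1, a cyclooxygenase, fell (-0.68 ± 0.10), as did Wnt4, above. Of members named after their values were seen, the progesterone receptor Pgr (-0.59) and its target Tnfsf11, or RANKL (-1.73), fell, and the luminal factor Gata3 rose (0.68). Of 20 basal markers 3 rose (15%) and 5 fell (25%), the lower count being 3 without replicate 1 at day 14. Lmod1 and the actin-binding calponin Cnn1 (1.31 ± 0.23, from a mean of 0.677 to 1.68 CPM) rose, as did the oxytocin receptor Oxtr (167, 167 and 148 CPM at day 14, 227, 213 and 276 CPM at day 28, 0.57 ± 0.10), whereas the chemokine Cxcl14 fell (-0.80 ± 0.16). The smooth muscle genes Acta2 (-0.54) and Tagln (-0.81) also fell, named after their values were seen, so contractile genes moved both ways. Of the 12 shared luminal genes, Muc1 rose and Prom2 fell (-0.68 ± 0.18), a call lost without replicate 1 at day 14 and without replicates 1 or 2 at day 28. Of 19 squamous genes tested 3 rose (15.8%) and 4 fell (21.1%), with 2 falls without replicate 1 or 3 at day 28 and 2 rises without replicate 1 or 3 at day 14 or replicate 1 at day 28. Among them were Klk6 and the calmodulin-like Calml3 (0.66 ± 0.15) upwards and the cornified-envelope protein involucrin, Ivl (-1.19 ± 0.21), and dermokine, Dmkn (-0.74 ± 0.13), downwards.

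Some markers of cells foreign to the epithelium were called, to be read beside 17.3% of all genes tested. These lists held 2 to 9 tested genes each, too few to set their counts apart from that share. Of the 5 of 13 myeloid markers that passed the filter, Cd14 and Csf1r rose, the latter from 0.0440, 0.134 and 0.167 CPM to 0.339, 0.442 and 0.583 CPM (1.97 ± 0.48), and the call on Csf1r was lost without replicate 1 at day 14. The summed level of that list was 296, 391 and 376 CPM at day 14 and 879, 777 and 843 CPM at day 28, nearly all of it Cd14. Among 6 endothelial genes tested, the vascular growth factor receptor Flt1 fell, from 37.1, 30.5 and 29.7 CPM to 13.7, 15.97 and 23.1 CPM (-0.88 ± 0.17). The lymphoid list held 2 tested genes and none called, the lung list 6 and none called, the adipocyte list 2 with Lipe higher (0.99 ± 0.31, lost when any of the 6 libraries was left out), and the neural list 7 with 1 higher and 1 lower, the latter Tubb3, both under 1 CPM in all 6 libraries. The call on Tubb3 was lost when any library but replicate 2 at day 14 was left out.

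Proliferation genes fell. Of 30 genes of G2 and mitosis, all of which passed the filter, 29 fell and 0 rose, with a median log2 change of -0.84. Of 30 genes of S phase 24 fell and 0 rose, with a median of -0.71. The shares that fell, 96.7% and 80.0%, stand beside 9.05% of all genes tested. Day 0 stood higher again: the per-library median of the G2 and mitosis list, on a log2 scale relative to the day 14 mean, was 0.70 to 0.97 at day 0, -0.07 to 0.07 at day 14 and -1.02 to -0.69 at day 28.

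Cdk1, the kinase that starts mitosis, is transcribed from chromosome 10, and Ccnb1, its cyclin partner, from chromosome 13. The 250 bases before the start of each gene are shown because promoters of this class are known for CCAAT boxes and for the cell cycle homology region, TTTGAA. They come from RefSeq on GRCm38.p6, with both motifs, on either strand, in capitals. The Cdk1 bases lie at chr10:69352913-69353162 and those of Ccnb1 at chr13:100786487-100786736, both on the minus strand.
Cdk1: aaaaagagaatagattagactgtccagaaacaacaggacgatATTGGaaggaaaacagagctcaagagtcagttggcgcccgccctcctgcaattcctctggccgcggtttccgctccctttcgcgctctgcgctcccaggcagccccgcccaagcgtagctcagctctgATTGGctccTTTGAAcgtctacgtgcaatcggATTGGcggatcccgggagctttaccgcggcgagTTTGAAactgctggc
Ccnb1: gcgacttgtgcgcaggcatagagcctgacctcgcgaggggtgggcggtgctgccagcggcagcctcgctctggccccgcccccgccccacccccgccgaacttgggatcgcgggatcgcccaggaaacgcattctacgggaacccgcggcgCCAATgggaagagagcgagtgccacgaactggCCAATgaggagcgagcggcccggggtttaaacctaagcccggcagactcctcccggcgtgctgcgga
The window searched ran from 250 bases before to 50 bases after the start, and 24 of the 30 genes had an entry. TTTGAA or its reverse complement TTCAAA was found in 19 of these 24 (79.2%), against 20.2% of the 27025 genes with a promoter entry, and CCAAT or ATTGG in 21 (87.5%), against 41.1%. Ccnb1 held CCAAT and no TTTGAA in its window. Of the 25 S phase genes matched, 3 held TTTGAA and 16 held CCAAT. A match describes these letters and does not mark a bound site.

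Cdk1 was at 98.6, 92.7 and 110.2 CPM at day 14 and 59.8, 56.4 and 47.2 CPM at day 28 (-0.88 ± 0.10, adjusted p = 1.87e-05). Ccnb1 fell from 44.4, 43.9 and 42.2 CPM to 24.9, 23.7 and 19.7 CPM (-0.93 ± 0.11, adjusted p = 2.77e-05). Ccna2, the cyclin of S phase and G2, fell from 98.3, 97.5 and 94.9 CPM to 51.2, 50.5 and 39.6 CPM (-1.04 ± 0.13, adjusted p = 3.16e-05). For these genes no day 28 library reached the lowest day 14 library. Kif23, a kinesin of the cell division midzone, fell by 1.05 on the log2 scale, and in S phase the same held for the replication initiator Mcm10 (-0.96 ± 0.12) and for the nucleotide synthesis enzymes Rrm2 (-0.88 ± 0.12) and Tyms (-0.86 ± 0.12). Rrm2 read 50.96, 54.1 and 52.6 CPM at day 14 and 32.9, 29.3 and 23.2 CPM at day 28, with a day 0 mean of 107 CPM. When each of the 6 libraries was left out, 27 to 29 of the G2 and mitosis genes and 18 to 24 of the S phase genes still fell.

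**Figure D3:**
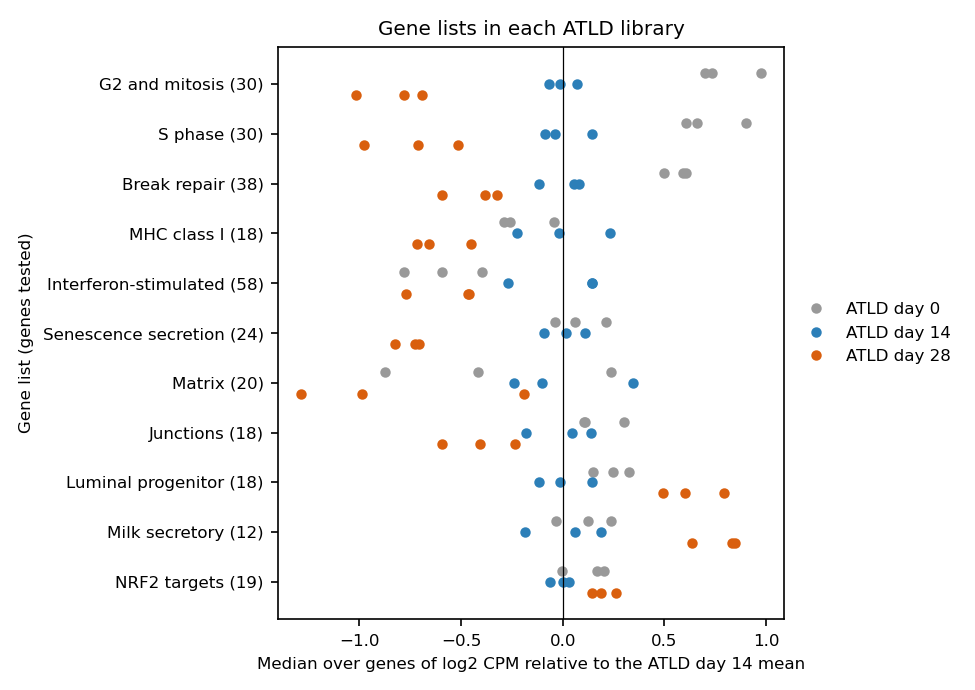
Median over the tested genes of each list of the log2 CPM relative to the ATLD day 14 mean, for each of the 9 ATLD libraries. Grey points are day 0, blue day 14 and orange day 28, and the number of tested genes stands in brackets. The day 28 points lie left of the day 14 points for the proliferation, repair, MHC class I, interferon, secretion and junction lists, and right of them for the luminal progenitor, milk and NRF2 lists. For the matrix list 1 of the day 28 libraries lies among the day 14 libraries.

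Repair genes fell in part. Of 38 genes for break repair and its signalling, 19 fell (50%) and 0 rose, with a median log2 change of -0.53, and 16 to 18 fell when a library was left out. Brca1, which directs recombination repair, read 22.7, 24.3 and 18.8 CPM at day 14 and 9.24, 10.998 and 9.43 CPM at day 28 (-1.15 ± 0.13, adjusted p = 1.66e-05). Its partner Bard1 (-0.90 ± 0.12), the recombination motor Rad54l (-0.84 ± 0.11) and the nuclease-helicase Dna2 (-1.06 ± 0.15) also fell, with no overlap between the times. Named after their values were seen, the kinases Chek1 (-0.97), Atr (-0.68) and Atm (-0.65) fell too. The partners of Mre11 did not pass the test, with log2 changes of -0.12 ± 0.11 for Rad50 (adjusted p = 0.510) and -0.07 ± 0.13 for Nbn (adjusted p = 0.749), nor did the end-joining genes Xrcc5 (-0.05), Xrcc6 (-0.05) and Xrcc4 (-0.16).

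Of 30 p53 target genes 1 rose (3.33%) and 5 fell (16.7%), beside 8.25% and 9.05% of all genes, with a median of -0.06. The count that fell was 2 or 3 whenever a library was left out. The pro-apoptotic Pmaip1 fell from 7.34, 5.90 and 5.90 CPM to 2.24, 3.33 and 2.73 CPM (-1.20 ± 0.16, adjusted p = 7.26e-05). The desmosomal Perp fell (-0.49 ± 0.10) and the kinase Plk2 rose (0.48 ± 0.09). The cell cycle inhibitor Cdkn1a (0.20 ± 0.11, adjusted p = 0.246), the p53 ligase Mdm2 (-0.03 ± 0.09, adjusted p = 0.864) and Bax (0.10 ± 0.30, adjusted p = 0.856) did not pass. Of 15 BCL2 family genes tested 1 rose (6.67%) and 4 fell (26.7%). The rise was in the anti-apoptotic Bcl2l1 (0.64 ± 0.17), named after its value was seen, and no member rose without replicate 1 or 2 at day 14 or without replicate 1 at day 28. The falls were in Pmaip1, the pro-apoptotic Bok (10.3, 12.2 and 11.6 CPM to 4.59, 3.86 and 4.27 CPM, -1.42 ± 0.22) and Bmf (-0.66 ± 0.16), and Bcl2a1a, which had few counts at day 14, none at day 28 and near-identical gene copies that can share its reads.

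Interferon-stimulated genes were lower at day 28. Of 59 listed, 58 passed the filter, 25 fell (43.1%, beside 9.05% of all genes) and 0 rose, with a median log2 change of -0.55. The median of the list per library, relative to the day 14 mean, was -0.78 to -0.40 at day 0, -0.27 to 0.15 at day 14 and -0.77 to -0.46 at day 28, and it was -1.73 to -1.22 and -1.61 to -1.28 in the 3 WT libraries labelled day 14 and the 3 labelled day 28. The count of falls rested on single libraries: it was 12 without replicate 2 at day 14, 12 without replicate 3 at day 14, 16 without replicate 1 at day 28 and 10 without replicate 2 at day 28, with 0 rises each time. Replicate 1 was the lowest of the day 14 libraries on this list.

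Gbp2 and Gbp7, interferon-induced GTPases that attack vacuoles of pathogens, lie on chromosome 3, and B2m, the light chain of MHC class I, lies on chromosome 2. The 250 bases before their starts (RefSeq, GRCm38.p6, plus strand, chr3:142620413-142620662, chr3:142530086-142530335 and chr2:122147437-122147686) are given because these genes were picked for holding the core of an interferon-stimulated response element, which reads GAAA, any 2 bases and GAAA again on either strand (TTTC, any 2 bases and TTTC on the other), in capitals.
Gbp2: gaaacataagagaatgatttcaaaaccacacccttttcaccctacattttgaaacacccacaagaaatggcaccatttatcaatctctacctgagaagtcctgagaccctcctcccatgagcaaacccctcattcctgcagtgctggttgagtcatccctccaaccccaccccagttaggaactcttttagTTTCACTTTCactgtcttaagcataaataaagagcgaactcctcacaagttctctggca
Gbp7: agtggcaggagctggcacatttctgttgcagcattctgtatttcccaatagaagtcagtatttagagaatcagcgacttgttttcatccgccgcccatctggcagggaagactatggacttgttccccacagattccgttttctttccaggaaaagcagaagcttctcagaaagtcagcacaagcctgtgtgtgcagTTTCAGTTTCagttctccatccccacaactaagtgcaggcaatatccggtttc
B2m: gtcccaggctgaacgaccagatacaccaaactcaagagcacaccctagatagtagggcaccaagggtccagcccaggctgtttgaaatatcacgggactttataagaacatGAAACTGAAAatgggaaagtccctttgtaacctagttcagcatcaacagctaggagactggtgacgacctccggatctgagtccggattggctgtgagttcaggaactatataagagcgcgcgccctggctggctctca
The match starts at position -59 from the start of Gbp2, -53 from that of Gbp7 and -139 from that of B2m. Over windows from 250 bases before to 50 bases after the start, 23 of the 43 interferon-stimulated genes with an entry held it (53.5%), as did 5 of 16 MHC class I genes (31.2%), against 3.99% of all 27025 genes. Among the genes with an entry that fell, 8 of 19 interferon-stimulated genes and 3 of 10 MHC class I genes held it, shares no larger than in each whole list. The named genes Xaf1, Epsti1, H2-Q6 and Psmb9, which also fell, had no match in their windows.

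Gbp2 was at 64.4, 80.1 and 80.7 CPM at day 14 and 41.8, 38.3 and 34.04 CPM at day 28 (-0.98 ± 0.17, adjusted p = 8.91e-04), and Gbp7 at 21.95, 27.04 and 23.97 CPM and 10.3, 12.6 and 13.5 CPM (-1.002 ± 0.21, adjusted p = 0.00305). Xaf1, a pro-apoptotic interferon-induced gene, fell from 51.8, 69.9 and 70.5 CPM to 36.97, 26.1 and 37.8 CPM (-0.93 ± 0.19, adjusted p = 0.00307). In all 3 genes the lowest day 14 library was above the highest day 28 library. Epsti1 fell as well (-0.84 ± 0.18, adjusted p = 0.00367), and among members named after their values were seen so did the antiviral genes Rsad2 (-1.56), Oas2 (-1.28) and Mx1 (-0.99). Of the pathway's transcription factors, these did not pass the test: Stat2 changed by 0.21 ± 0.16 (adjusted p = 0.395) and Irf7 by -0.52 ± 0.26 (adjusted p = 0.202). Isg15, the ubiquitin-like modifier, read 139.7, 207 and 255 CPM at day 14 and 142, 86.5 and 124 CPM at day 28 (-0.77 ± 0.27, adjusted p = 0.0595).

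Genes of antigen presentation on MHC class I were lower at day 28. Of 18 genes 11 fell (61.1%) and 0 rose, with a median of -0.63, and 9 to 11 fell when a library was left out. B2m went from 1412, 1949 and 1599.8 CPM to 1011, 858 and 789 CPM (-0.90 ± 0.15, adjusted p = 6.04e-04), below every day 14 library. Psmb9, a subunit of the immunoproteasome that cuts the peptides, fell from 25.7, 36.2 and 37.1 CPM to 16.6, 12.3 and 11.9 CPM (-1.28 ± 0.20, adjusted p = 3.54e-04). Nlrc5, the transactivator of the class I genes, fell from 4.94, 4.81 and 4.88 CPM to 1.88, 1.60 and 2.31 CPM (-1.34 ± 0.23, adjusted p = 6.68e-04). The class I heavy chain H2-Q6 fell (-1.68 ± 0.23), with reads that near-identical H2-Q genes may share, while the classical heavy chains H2-K1 (-0.43 ± 0.20, adjusted p = 0.165) and H2-D1 (-0.42 ± 0.21, adjusted p = 0.185) did not pass. Class II genes were split: the peptide-loading chaperone subunits H2-DMb1 (7.36, 9.54 and 10.1 CPM to 24.2, 21.6 and 22.03 CPM, 1.33 ± 0.17) and H2-DMa (0.72 ± 0.17) rose and the invariant chain Cd74 fell (-0.96 ± 0.24), of 7 tested.

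Among nucleic acid sensors, Cgas, the cytosolic DNA sensor, fell from 8.61, 9.39 and 6.95 CPM to 3.32, 3.43 and 3.06 CPM (-1.35 ± 0.15, adjusted p = 1.66e-05). Its adaptor STING, listed as Tmem173, rose from 55.9, 63.5 and 54.4 CPM to 89.6, 82.8 and 86.5 CPM (0.57 ± 0.10, adjusted p = 5.21e-04). The 2 genes thus moved in opposite directions, each without overlap between the times. Of 18 sensing genes tested 1 rose (5.56%) and 3 fell (16.7%), beside 8.25% and 9.05% of all genes. The calls on Ifih1 (-0.45 ± 0.15) and Rnaseh2b (-0.37 ± 0.12) were lost when most single libraries were left out. Of 8 tested Ifi200 genes, which encode DNA-binding proteins induced by interferon, 2 fell: Ifi202b (45.7, 41.9 and 51.7 CPM to 21.2, 22.04 and 18.4 CPM, -1.17 ± 0.16) and Ifi203 (14.1, 21.6 and 20.7 CPM to 9.26, 6.26 and 6.53 CPM, -1.35 ± 0.25). Both belong to a cluster of similar genes on chromosome 1, so reads may be shared among them.

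Secreted factors of the senescence-associated list fell widely. Of 24 tested, 15 fell (62.5%) and 2 rose, with a median of -0.84, and 12 to 16 fell when a library was left out. Il6, the inflammatory cytokine, fell from 2.09, 2.32 and 2.40 CPM to 0.384, 0.611 and 0.210 CPM (-2.48 ± 0.26, adjusted p = 7.27e-06). Timp1, an inhibitor of matrix metalloproteinases, fell from 215, 224 and 239 CPM to 135, 121 and 106 CPM (-0.90 ± 0.10, adjusted p = 1.72e-05), and Plau, the urokinase, from 55.4, 52.5 and 44.6 CPM to 26.3, 28.6 and 30.1 CPM (-0.84 ± 0.11, adjusted p = 6.55e-05). The times did not overlap for any of these genes. The chemokine Ccl20 fell as well (-1.38), as did the chemokines Cxcl1 (-0.52) and Ccl2 (-0.50), these 2 named after their values were seen. The members that rose were the stromelysins Mmp3 (0.879, 0.939 and 1.05 CPM to 2.06, 2.91 and 1.94 CPM, 1.27 ± 0.25) and Mmp10 (1.56 ± 0.41). The summed level of the list, 7306, 5957 and 6409 CPM at day 14 and 7418, 7480.5 and 11722 CPM at day 28, did not fall. Most of that sum was the growth factor binding protein Igfbp5, named after its values were seen, at 6399.5, 5012 and 5449 CPM and 6835, 6908 and 11153 CPM (0.56 ± 0.19, adjusted p = 0.0509), which did not pass.

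Of 17 NF-kB target genes tested 1 rose (5.88%) and 4 fell (23.5%), beside 8.25% and 9.05% of all genes. Nfkbiz, an atypical NF-kB inhibitor protein, fell from 57.4, 64.9 and 54.3 CPM to 31.1, 34.8 and 32.8 CPM (-0.84 ± 0.09, adjusted p = 1.33e-05), and the cytokine Tnf (-0.54 ± 0.11) and the feedback deubiquitinase Tnfaip3 (-0.47 ± 0.11) fell. Traf1, a receptor adaptor, rose from 3.12, 3.17 and 4.31 CPM to 9.13, 7.63 and 8.38 CPM (1.25 ± 0.19, adjusted p = 2.00e-04).

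Of 22 immediate early genes, which growth factors switch on within minutes, 8 fell (36.4%) and 1 rose. Fos, an AP-1 subunit, fell from 607, 733 and 639 CPM to 212, 152 and 222 CPM (-1.75 ± 0.19, adjusted p = 7.82e-06). The zinc-finger factor Egr2 fell from 20.5, 22.4 and 21.3 CPM to 8.81, 7.98 and 9.12 CPM (-1.31 ± 0.13, adjusted p = 4.56e-06) and Egr1 from 694, 710.0 and 649.9 CPM to 318, 263 and 325 CPM (-1.18 ± 0.15, adjusted p = 3.27e-05). Klf6 fell by 0.93 on the log2 scale, and no day 28 value of these genes reached a day 14 value. The AP-1 partners Junb (0.13, adjusted p = 0.915) and Jund (0.17, adjusted p = 0.596) did not pass.

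ERK feedback genes, transcribed when the Ras pathway is active, went the other way in several members: 6 of 18 rose (33.3%) and 3 fell, with 1 fall without replicate 1 at either time. Etv5 rose from 61.1, 58.7 and 62.3 CPM to 107, 122 and 120.2 CPM (0.94 ± 0.10, adjusted p = 1.16e-05) and Etv1, a related ETS factor, from 6.61, 7.62 and 7.55 CPM to 15.8, 23.2 and 20.3 CPM (1.44 ± 0.16, adjusted p = 1.41e-05). Each day 28 library was above each day 14 library for both, and for the pathway inhibitor Spry4 (0.996 ± 0.15) and for Phlda1 (0.85 ± 0.15). The ERK phosphatase Dusp6, also of the list, changed by -0.09 ± 0.08 (adjusted p = 0.540) and Etv4 by 0.12 ± 0.18 (adjusted p = 0.699). Of 14 ERBB receptors and ligands tested, the ligand Nrg1 rose (5.96, 4.40 and 4.74 CPM to 6.62, 8.60 and 8.49 CPM, 0.65 ± 0.14) and the ligand Btc fell (38.9, 35.6 and 38.8 CPM to 25.2, 28.4 and 22.8 CPM, -0.57 ± 0.14). Egfr was called lower (-0.61 ± 0.18, adjusted p = 0.0283) although its values overlapped, 134, 107 and 88.99 CPM at day 14 and 55.8, 66.1 and 94.1 CPM at day 28, and the call was lost without replicates 1 or 2 of either time.

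Some matrix and junction genes fell. Of 20 matrix genes 8 fell (40%) and 0 rose, with a median of -0.89, but 5 fell without replicate 1 at day 14, the highest library of the list, and replicate 3 at day 28 lay among the day 14 libraries. The fibroblast sums given above overlapped between the times, and their part in the matrix counts was not tested. Lox, which cross-links collagen, fell from 30.5, 26.04 and 22.3 CPM to 7.71, 9.21 and 9.64 CPM (-1.57 ± 0.18, adjusted p = 1.70e-05). The laminin chain gene Lama3 (98.3, 47.3 and 54.3 CPM to 12.5, 17.1 and 30.7 CPM, -1.73 ± 0.32) fell without overlap, while the laminin chain gene Lamb3 changed by 0.43 ± 0.32 (adjusted p = 0.396). Of 18 junction genes 10 fell (55.6%) and 0 rose, a count of 5 without replicate 1 at day 14, without replicate 1 at day 28 or without replicate 2 at day 28. The desmosomal cadherin Dsc2 fell from 50.2, 44.2 and 36.6 CPM to 14.6, 16.8 and 21.2 CPM (-1.32 ± 0.17, adjusted p = 4.64e-05) and desmoplakin, Dsp, from 439, 332 and 303 CPM to 159.5, 200.2 and 225 CPM (-0.88 ± 0.18, adjusted p = 0.00315). The tight junction claudins Cldn1 (-0.62 ± 0.13) and Cldn8 (-0.57 ± 0.11) fell, as did E-cadherin, Cdh1, named after its value was seen (-0.56).

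Of 15 genes of the epithelial-mesenchymal transition 3 rose and 3 fell (20% each), with 1 rise and 1 fall without replicate 1 at day 14, and 1 fall without replicate 1 or 2 at day 28. The calcium-binding S100a4 rose from 0.769, 0.670 and 0.857 CPM to 3.68, 3.43 and 2.87 CPM (2.12 ± 0.20, adjusted p = 3.38e-06), and Sparc, a collagen-binding glycoprotein, fell from 315, 235 and 252 CPM to 128, 142 and 167 CPM (-0.88 ± 0.12, adjusted p = 9.09e-05). The transcription factor Snai1 rose (1.39 ± 0.34), a call lost without replicate 1 at either time. Of 18 TGF-beta and YAP response genes 4 rose and 6 fell, 3 falling without replicate 1 at either time. Ccn1, a matricellular YAP target, fell from 259.8, 268 and 248 CPM to 137, 118 and 138 CPM (-0.98 ± 0.12, adjusted p = 2.04e-05), and the YAP target Ankrd1 rose from 23.8, 23.1 and 28.9 CPM to 74.3, 63.96 and 59.01 CPM (1.38 ± 0.18, adjusted p = 4.64e-05). The adhesive glycoprotein Thbs1 (-1.51 ± 0.26) fell, and all 3 Id genes tested, BMP targets named after their values were seen, rose (0.96 for Id1, 0.44 for Id2 and 1.51 for Id3).

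In the Notch pathway, 3 of 17 genes tested rose and 3 fell (17.6% each), beside 8.25% and 9.05% of all genes. The target Hey1 rose from 114, 125 and 147 CPM to 296, 279 and 270.4 CPM (1.13 ± 0.10, adjusted p = 1.40e-06) and the ligand Dll1 from 44.8, 44.6 and 43.99 CPM to 112, 100.3 and 139 CPM (1.40 ± 0.21, adjusted p = 1.82e-04). The ligand Jag1 fell from 96.98, 57.7 and 61.1 CPM to 17.4, 21.2 and 37.7 CPM (-1.50 ± 0.29, adjusted p = 0.00170) and the target Hey2 fell too (-0.63 ± 0.14). Ligands and targets were thus each found in both directions. Of 15 Wnt targets tested 1 was called, the secreted inhibitor Wif1, lower at day 28 (-0.82 ± 0.14). That share of falls, 6.67%, was below the 9.05% of all genes.

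Among metabolic and stress lists, the NRF2 targets, which encode antioxidant enzymes, held 7 rises (36.8%) and 0 falls of 19 tested, and 4 rises without replicate 3 at day 14 or without replicate 2 at day 28. Me1, the malic enzyme, rose from 117, 123 and 126 CPM to 217, 233 and 212 CPM (0.86 ± 0.10, adjusted p = 2.52e-05) and Nqo1, a quinone reductase, from 179, 177 and 205 CPM to 268, 275 and 247 CPM (0.49 ± 0.11, adjusted p = 0.00395). The day 28 values of both stood above all day 14 values, while Hmox1 (-0.17 ± 0.18, adjusted p = 0.576) and Gclc (-0.09 ± 0.10, adjusted p = 0.576) did not pass. Of 22 genes of hypoxia and glycolysis 2 rose (9.09%) and 3 fell (13.6%), beside 8.25% and 9.05% of all genes. When each of the 6 libraries was left out 1 or 2 fell, 1 of them without replicate 1 at day 14 and without replicate 2 or 3 at day 28, and 1 rose without replicate 1 at day 14. Without both WT replicate 2 libraries 7 rose and 6 fell. Ndrg1, a stress-response gene of differentiated epithelia, rose from 144, 186 and 164 CPM to 529, 484 and 473 CPM (1.59 ± 0.11, adjusted p = 6.81e-08), and carbonic anhydrase Car9 rose from 20.2, 23.8 and 24.7 CPM to 38.1, 34.1 and 31.1 CPM (0.59 ± 0.14, adjusted p = 0.00915), a call lost without replicate 1 at day 14.

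Of 18 genes of the unfolded protein response 3 rose (16.7%) and 1 fell (5.56%), beside 8.25% and 9.05% of all genes. Without replicate 1 at day 14 there was 1 rise, and the fall was lost when any library but replicate 3 at day 28 was left out. Without both WT replicate 2 libraries 7 rose and 2 fell. Herpud1, of endoplasmic reticulum degradation, rose from 47.6, 61.7 and 55.7 CPM to 106, 102 and 91.8 CPM (0.86 ± 0.12, adjusted p = 9.09e-05). In cholesterol synthesis 5 of 22 genes fell (22.7%) and none rose, 3 without replicate 1 at day 28, with the synthase Hmgcs1 at 243, 229 and 224 CPM and then 158, 181 and 161 CPM (-0.48 ± 0.10, adjusted p = 0.00283). Of 28 ribosomal protein genes 10 fell and none rose, but 1 fell without replicate 3 at day 14 and 3 without replicate 2 or replicate 3 at day 28. Rpl4 read 2881, 2920.2 and 3171 CPM at day 14 and 2287, 2075 and 1875 CPM at day 28 (-0.52 ± 0.10, adjusted p = 0.00208). Of 9 mitochondrial transcripts tested 2 were called lower, and both calls were lost in most leave-outs.

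The change in ATLD organoids was then set against that in WT organoids over the same days, by a contrast of the 2 changes in the same fit. It called 1001 genes (5.36%), 444 with the more positive change in ATLD (2.38%) and 557 with the more negative (2.98%). The WT change rests on the libraries labelled replicate 2 at days 14 and 28, which lay nearer the other day. The contrast called 2018 genes without that of day 14 and 4866 without both, 1711 with the more positive change and 3155 with the more negative, and 985 of the 1001 were among them. The original WT libraries and the ATLD libraries come from different runs, and with all 21 libraries and a run term the contrast called 1641 genes. That fit counts the 3 resequenced WT libraries as further replicates, although they are the same samples. Of the 3232 genes called in ATLD, 906 also had a called difference, 904 of them with the sign of the ATLD change. That change is itself a part of the difference, so the shared sign adds little. All 83 named genes with a called difference kept the call and its sign without both WT replicate 2 libraries, which adds little where 985 of all 1001 were still called. Atp6v1c2 had a WT log2 change of -0.38, so the changes differed by 3.02 ± 0.17 (adjusted p = 5.35e-08), and Slc25a48 one of -0.67, a difference of 2.98 ± 0.21 (adjusted p = 1.38e-06). Ltf, at 26.2 and 25.3 CPM in WT at days 14 and 28, differed by 2.23 ± 0.18 (adjusted p = 3.28e-06), and Ndrg1 by 1.78 ± 0.15 (adjusted p = 4.32e-06). In the other direction stood Fos, whose WT mean was 350.1 CPM at day 14 and 667 CPM at day 28, with a difference of -2.68 ± 0.26 (adjusted p = 1.72e-05), Egr2 with -2.32 ± 0.18 (adjusted p = 3.28e-06), Il18r1 with -2.04 ± 0.18 (adjusted p = 4.47e-06) and Pglyrp3 with -2.08 ± 0.19 (adjusted p = 1.44e-05). Without both WT replicate 2 libraries the differences were 2.86 ± 0.15 for Atp6v1c2, 2.83 ± 0.22 for Slc25a48, 2.18 ± 0.18 for Ltf, 1.75 ± 0.15 for Ndrg1, -3.01 ± 0.22 for Fos, -2.52 ± 0.16 for Egr2, -1.86 ± 0.16 for Il18r1 and -2.10 ± 0.20 for Pglyrp3. Erbb2, with a difference of -0.19 ± 0.36 (adjusted p = 0.869), was called without them, at -0.80 ± 0.25 (adjusted p = 0.0251).

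By list, the more negative ATLD change was called for 22 of 30 G2 and mitosis genes, 10 of 30 S phase genes, 9 of 38 repair genes, 8 of 18 MHC class I genes, 10 of 24 senescence secretion genes, 10 of 22 immediate early genes and 6 of 20 matrix genes, beside 2.98% of all genes. Without both WT replicate 2 libraries the counts were 25, 23, 12, 14, 11, 15 and 13 in the same order. The share of all genes rose too, with 3155 of 19057 called for the more negative change there, so 2.98% is no measure for these counts. The per-library median of the MHC class I list, relative to the ATLD day 14 mean, was -1.56, -0.89 and -1.43 in WT replicates 1 to 3 of day 14 and -0.68, -1.57 and -0.92 in those of day 28, so replicate 2 of each day read like the other day. For Cdk1 the WT means were 85.2 and 77.2 CPM, and the difference was -0.74 ± 0.14 (adjusted p = 0.00543), or -0.71 ± 0.15 without both WT replicate 2 libraries. Of the interferon-stimulated genes 6 of 58 had a called difference, Gbp2 among them (-0.997 ± 0.25, adjusted p = 0.0243), and of the junction genes 0 of 18. Without those WT libraries the counts were 14 and 5, and the difference of Gbp2 was -0.72 ± 0.21. The more positive ATLD change was called for 3 of 18 luminal progenitor genes, 3 of 12 milk genes, 4 of 18 ERK feedback genes and 3 of 19 NRF2 targets, beside 2.38%. The more negative change was called for 2, 1, 0 and 0 members of these lists. Without those libraries 6, 5, 4 and 4 members had the more positive change, beside 1711 of all 19057 genes. The more negative change was then called for 4, 2, 3 and 3, beside 3155 of the 19057 genes. Those counts lie near the share of all genes and say nothing particular about these lists. In the WT libraries of days 14 and 28, Ltf, Csn3 and Lcn2 together took 0.0193% to 0.0277% of counts.

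**Figure D4:**
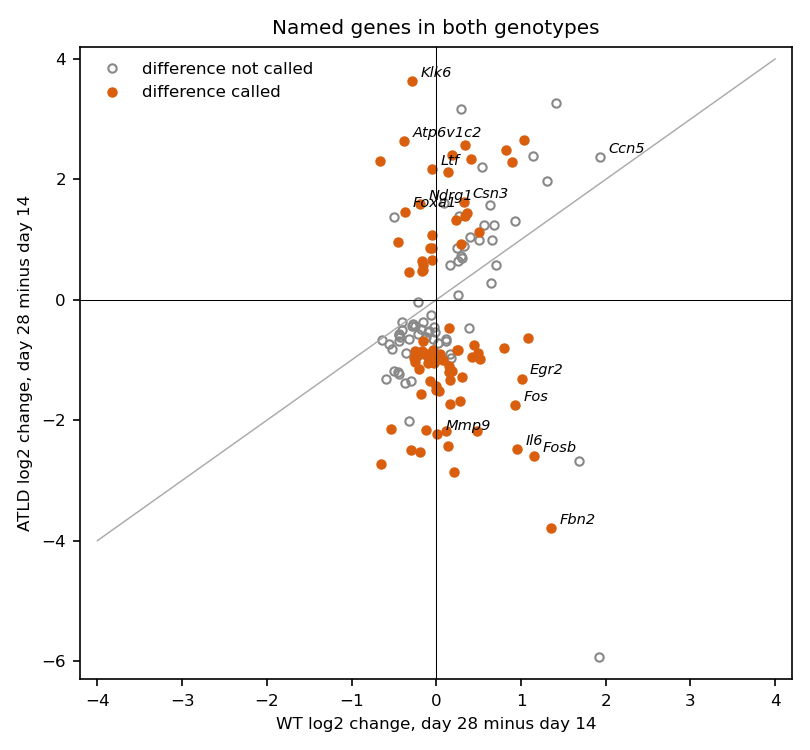
Fitted log2 change from day 14 to day 28 in ATLD organoids (vertical axis) against WT organoids (horizontal axis, all 3 libraries of each day) for the 151 named genes. Filled points are the 83 genes whose changes differed at an adjusted p under 0.05, open points the rest, and the diagonal marks equal change. Fos, Fosb, Egr2 and Il6 lie at positive WT and negative ATLD changes, and Klk6, Atp6v1c2 and Ndrg1 at the reverse.

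The libraries also differed by the GC content of their genes. Genes above 55% GC had a median log2 change of 0.19 and genes under 40% one of -0.16. Replicate 1 at day 14 was low for GC-rich genes, at a median deviation of -0.20 from the mean of the 6 libraries, and replicate 1 at day 28 was high, at 0.21, while replicate 2 of each day was nearly flat over GC content. The lists that fell had median GC contents of 46.3% for G2 and mitosis, 47.5% for interferon-stimulated genes and 54.4% for MHC class I, and the luminal progenitor list that rose had 50.9%. The part of GC content in the results was not tested beyond a fit with a GC offset. With that offset 30 of 30 G2 and mitosis genes and 31 of 58 interferon-stimulated genes fell, as did 15 of 18 MHC class I genes, and 13 of 18 luminal progenitor genes rose. Calls rose over all 18684 genes as well, from 1542 to 2845 higher and from 1690 to 2191 lower, so added calls in a list are to be read beside that. The nucleic acid sensing list went from 1 rise and 3 falls to 3 rises and 2 falls.

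**Figure D5:**
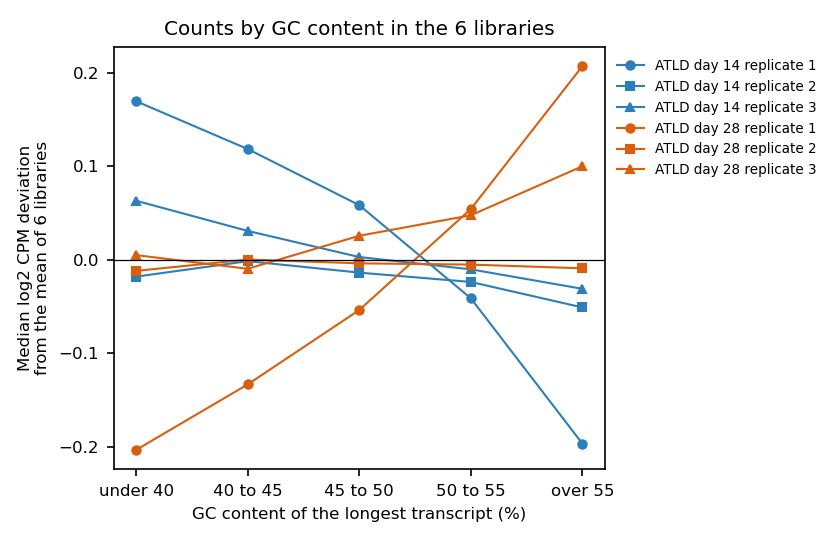
Median deviation of log2 CPM from the mean of the 6 libraries, for genes in 5 ranges of GC content. Lines are libraries, blue for day 14 and orange for day 28, with a marker shape for each replicate. Replicate 1 of day 14 slopes down and replicate 1 of day 28 slopes up, while replicate 2 of each day is nearly flat.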

How the data were processed

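PolyA RNA of mammary organoids was sequenced after a stranded library preparation. The authors deposited raw counts per gene for 55536 genes in 21 columns, made with featureCounts on mm10, and DESeq2 is also named, per the submitters' processing notes. No source used here gives the version or strand setting of the counting, so genes that overlap or have near-identical copies are uncertain. The 18 original libraries were fitted together as 6 groups with edgeR 4.0.16 (R 4.3.3; TMM; minimum count 10, minimum total count 15; prior count 0.125), and 18684 genes were tested by the quasi-likelihood test at an adjusted p under 0.05. The resequenced WT libraries entered an alternative alone.

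Tested on simulated data of 18400 genes, the ATLD comparison recovered 90% of 2-fold and 100% of 4-fold changes with 3.55% false calls, and the genotype difference 45% and 94% with 4.79%. The simulation changed 100 genes at each fold, all above 1 CPM, and drew each library independently. It held no GC trend between replicates, no deviation shared by libraries and no change between the WT days. Its rates check the fit and are not the error or power of the real comparison. Named genes were Mre11a and Erbb2, the 12 largest called rises and falls with no overlap, a mean log2 CPM not under 1 and a full gene name, up to 4 called members of each of 40 lists by smallest p (2 where none was called), and the 4 smallest adjusted p of the difference in each direction. The members and lists were chosen with earlier results of these data known. Of 770 list genes 706 passed the filter. The alternatives were other size factors, no filter, DESeq2 1.42.0, a GC offset, a replicate block, fewer or more libraries, each library left out and, added after seeing the data, both WT replicate 2 libraries left out. GC values came from the reference annotation for 18678 of the genes tested. Depth, with 46331204 or more counts in each compared library, limits only genes of few counts. Results of some genes are not reported here.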

Additional observations from a re-analysis of the deposited data

Results flagged for a closer look

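The change from day 14 to day 28 differed between ATLD and WT organoids for 1001 genes, by a test of the difference of the changes in the edgeR fit, and 83 of the 151 named genes were among them, 29 with the more positive and 54 with the more negative change in ATLD. Of the 151, 143 were called for their ATLD change, which is itself a part of the difference. The count of 83 and its signs thus follow in part from how the genes were chosen. The values that follow are, for the genes given, that difference on the log2 scale, ATLD change minus WT change, and each passed at an adjusted p under 0.05. They include the WT libraries labelled replicate 2 at days 14 and 28, which lay nearer the libraries of the other day, and without both all 83 kept the call and its sign. That setting called 4866 genes, 985 of the 1001 among them, so the kept calls add little. Sizes moved both ways, as for Klk6, from 3.91 to 3.30, and Wnt4, from -2.29 to -2.78. In the cell cycle, repair and p53 lists the difference was negative for Dna2 -1.03, Kif23 -0.95, Brca1 -0.95, Bard1 -0.86, Mcm10 -0.85, Rad54l -0.79, Ccna2 -0.79, Cdk1 -0.74, Ccnb1 -0.71, Tyms -0.69 and Rrm2 -0.67, and positive for Plk2 0.65. In the interferon, sensing and antigen presentation lists the difference was negative for H2-Q6 -1.96, Psmb9 -1.58, Nlrc5 -1.50, Cgas -1.27, Epsti1 -1.09, Gbp7 -1.09 and Gbp2 -0.997, and positive for H2-DMb1 1.09. In the mammary lineage, milk and squamous lists the difference was negative for Wnt4 -2.29, Cxcl14 -1.60, Ivl -1.34 and Ptgs1 -0.52, and positive for Klk6 3.91, Ltf 2.23, Foxa1 1.84, Lmod1 1.67, Prom1 1.42, Muc1 1.39, Csn3 1.298, Spp1 1.13 and Calml3 0.72. In the secretion, NF-kB, immediate early, ERK and ERBB lists the difference was negative for Fosb -3.75, Il6 -3.43, Fos -2.68, Egr2 -2.32, Mmp9 -2.25, Egr1 -1.37, Nfkbiz -1.09, Timp1 -0.95, Klf6 -0.92, Tnfaip3 -0.63 and Plau -0.59, and positive for Etv1 1.08, Nrg1 0.82 and Etv5 0.65. In the matrix, transition, TGF-beta, YAP and Notch lists the difference was negative for Lama3 -1.89, Hey2 -1.71, Thbs1 -1.55, Jag1 -1.50, Ccn1 -1.49, Lox -1.39, Sparc -1.37 and Tgfbi -1.20, and positive for S100a4 1.98, Dll1 1.06 and Hey1 0.63. In the metabolic, stress and apoptosis lists the difference was negative for Bok -1.42, and positive for Ndrg1 1.78, Herpud1 0.94, Me1 0.91, Xbp1 0.78, Car9 0.74 and Nqo1 0.65. Among named genes of no list it was negative for Fbn2 -5.16, C1qtnf3 -3.07, Slc8a1 -2.65, Cftr -2.57, Fndc1 -2.33, Igf1 -2.20, Pglyrp3 -2.08, Il18r1 -2.04 and Slitrk6 -1.63, and positive for Atp6v1c2 3.02, Slc25a48 2.98, Tmod2 2.24, Afap1l1 2.22, Them5 1.94 and Hp 1.61.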

How the results depend on the processing

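The 3232 genes called between day 14 and day 28 became 5036 with a GC offset (2845 higher, 2191 lower) and 1975 with a replicate block, and 2202 to 2677 when each library was left out. The other settings gave 2792 (no filter) to 3816 (block with GC offset), with DESeq2 at 3665 and the 9 ATLD libraries with a GC offset, added after seeing the data, at 3706. Without both WT replicate 2 libraries, also added after seeing the data, the counts were 5314 here and 4866 for the genotype difference, 35.2% of these with the more positive change. The 1001 genes of the genotype difference became 2309 with the GC offset (55.8% of them with the more positive change in ATLD, against 44.4%), 438 with the block, 1641 with all 21 libraries and a run term, and 694 to 2018 when each library was left out, the highest without replicate 2 of WT at day 14. The cause was not tested. Replicate numbers did not pair the libraries: same-numbered deviations correlated at -0.83, -0.06 and -0.47 over 11904 genes, and no library correlated best with its own number. Libraries of different numbers did share deviations. Day 14 replicate 1 and day 28 replicate 3 correlated at 0.75, and day 14 replicates 3 and 2 correlated with day 28 replicate 1 at 0.54 and 0.41. The other pairs of unlike number lay from -0.39 to 0.18. The tests treat the libraries as independent, and the source of these shared deviations was not tested. The Mre11a change turned positive with the GC offset (0.056), the block with the offset (0.057), the 9 ATLD libraries with it (0.054) and without ATLD day 14 replicate 2 (0.0072), and that of Erbb2 turned negative with the offset (-0.090), the block with it (-0.087), the 9 ATLD libraries with it (-0.094) and without ATLD day 28 replicate 3 (-0.13), none of them called. Leaving out each library gave -0.099 to 0.0072 for Mre11a and -0.13 to 0.18 for Erbb2. Of 143 named genes called, 118 were called under every one of 16 settings in which they were tested (Bcl2a1a in 15), 25 lost the call in at least 1 and 11 in at least 5. Calr, Rnaseh2b, Ifih1, P4ha1, mt-Nd3, Ccng1, Egfr, Lipe, mt-Nd5, Rps23 and Tubb3 are those 11. The 8 genes named for the genotype difference were called under every setting run for it. They were picked for the smallest adjusted p of that same contrast, so this adds little.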
